A study of Drosophila melanogaster with 4 samples.

Results

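Dense clusters of binding regions of the protein CG8478 were described here, meaning runs of at least 5 called regions that follow each other closely along a chromosome arm of Drosophila melanogaster. A called region is a stretch of DNA that the authors' peak caller reported as enriched after immunoprecipitation. Members were chosen by position: consecutive regions on 2L, 2R, 3L, 3R, X or 4 were joined when the gap between them was under 5 kb, and all regions of runs with 5 or more were kept. An evenly spaced stretch of proximal 2L, with 83 regions between 21417054 and 21541594, was left out. This gave 614 regions in 96 clusters, which is 16.3% of the 3757 regions on the 6 arms, and the whole list held 4067. A further 1528 regions lay in small clusters of 2 to 4, and 1532 were lone, with no other region within 5 kb on either side.

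The study profiled chromatin of white prepupae, the brief immobile stage at the start of metamorphosis, by chromatin immunoprecipitation and sequencing (ChIP-seq). A rabbit polyclonal antibody, KW3-CG8478-D1, was used for 2 ChIP libraries, and 2 input libraries held DNA that had not been immunoprecipitated. Both groups came from the strain Y cn bw sp, with no treatment named. The alleles listed for both groups are y[1], cn[1], sp[1], bw[1], Gr22d[1], Gr22b[1], Rh6[1], GstD5[1], LysC[1] and MstProx[1], together with lab[R4.2], CG33964[R4.2] and oc[R3.2]. The labels name whole prepupae, so any tissue or cell type could contribute, and which ones did was not tested. The values come from 1 list without values per library, so depth is unknown, no replicate spread could be given and no input level stands beside a region. No test is reported: positions and scores come from the same peak calling that chose the members, and neighbouring regions are not replicates. Intervals on shares cover counting error only and treat regions as independent.

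ChIP-seq marks the places where a chromatin-bound protein, or a complex that holds it, can be crosslinked to DNA. Zinc fingers of the C2H2 type, in which paired cysteines and histidines hold a zinc ion, are the most common DNA-binding fold among fly transcription factors. The labels give the antigen against which the antibody was raised, a peptide of 111 residues, and it held 1 match to the cysteine and histidine spacing of such a finger. In flies, the regulatory DNA of developmental genes often carries several bound stretches spread over many kilobases. Several neighbouring called regions can therefore be separate sites, or pieces of 1 broad enriched stretch that a peak caller divided.

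Most dense clusters were close to the minimum size. Of the 96, 49 held exactly 5 regions and 19 held 6, while 14 held 9 or more and the largest held 14. Their spans ran from 2.26 to 26.6 kb, with a median of 8.56 kb and quartiles of 6.95 and 13.0 kb. Called regions covered 33.0% of the summed span of 937 kb. The covered share of single clusters ran from 9.03% to 85.0%, so some were nearly continuous and others were mostly uncalled DNA.

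**Figure D1:**
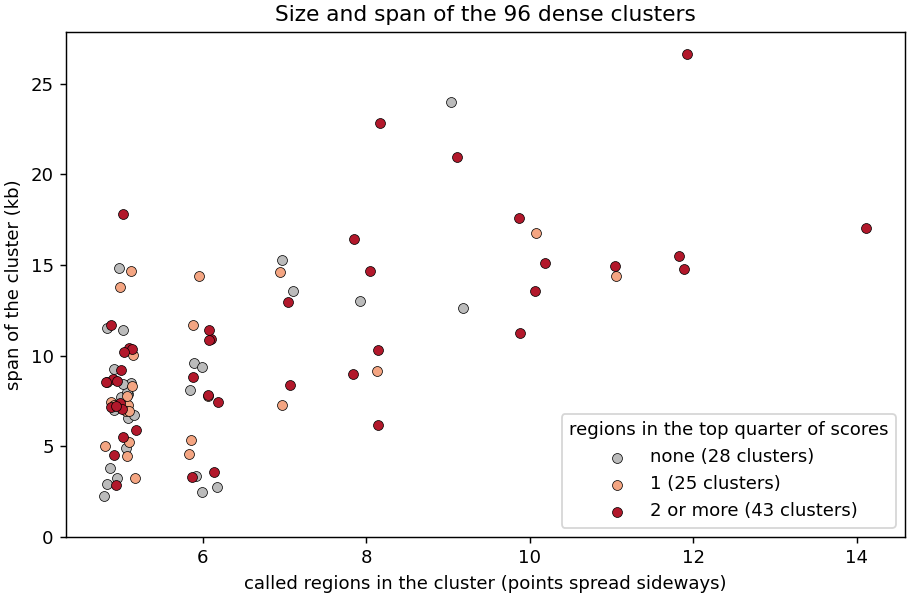
Each point is 1 of the 96 dense clusters, placed by its number of called regions (horizontal axis) and its span in kb (vertical axis) and coloured by how many of its regions had scores in the top 25% of the arms. Clusters of 5 regions run from 2.26 kb to 17.8 kb, and the widest, with 12 regions, spans 26.6 kb.

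Gaps inside the clusters were mostly short. Their median was 594.5 bp (n = 518, quartiles 183 and 2044 bp), and 318 of them (61.4%) were under 1 kb. Gaps under 200 bp numbered 137 (26.4%). In small clusters, which the same 5 kb limit made, 55.7% of 906 gaps were under 1 kb and 28.0% were under 200 bp. When regions less than 1 kb apart were joined, the 614 regions became 296 sites. In 14 clusters all regions fell into 1 site, 64 clusters had 2 to 4 sites and 18 still had 5 or more, with at most 7. The 14 single-site clusters spanned 2.26 to 10.3 kb, with 44.6% to 85.0% of the span covered.

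Both limits of the clusters were set by the position rule. The 5 kb cut fixed that the widest gap inside a cluster, 4967 bp, was below the narrowest gap beside one, 5059 bp. Close to this cut lay 28 inner gaps of 4 kb or more and 18 of 191 outer gaps under 6 kb. The median outer gap was 17.4 kb. The 49 runs of 5 regions had a median score of 17.73 and a median width of 366 bp, against 18.6 and 339 bp in the 75 runs of 4 that just missed the size limit. The values on either side of the size limit thus lay close together.

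Dense clusters lay on 5 of the 6 arms. The X held 29 of them with 180 regions, 20.5% of all its called regions, and 2R held 20 with 126 regions (19.1%). The share was 14.8% on 3R (18 clusters, 123 regions), 14.7% on 3L (16 clusters, 107 regions) and 14.1% on 2L (13 clusters, 78 regions) when the evenly spaced stretch was not counted. None of the 24 regions of chromosome 4, the small and mostly heterochromatic autosome, was a member. Since members come in runs of at least 5, these 24 regions are too few to bound the share there. Per Mb between the first and last called region, clusters numbered 1.29 on X, 1.02 on 2R and 0.574 to 0.668 on the other large arms. The X also had most called regions for its length, 39.2 per Mb against 33.8 on 2R and 28.1 to 30.3 on the other large arms. The lowest of these, 28.1 on 2L, counts the 83 regions of the evenly spaced stretch and would be lower without them. The part of the density of regions in the number of clusters was not tested. Member scores had their highest median on X, at 19.93 with 26.1% in the top 25%, and their lowest on 3R, at 14.75 with 22.8%, although the medians over all regions of those arms were 19.98 and 20.39. The share of members in the top 25% was lowest on 3L, at 16.8%, followed by 21.8% on 2L.

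Scores in dense clusters were on the low side of the list. The score is the authors' value from the peak caller, and the file does not state its scale, so it ranks regions within this list only. The median was 17.7 in dense clusters (quartiles 11.3 and 37.7), 19.1 in small clusters and 22.4 among lone regions. Of the 614 members, 140 (22.8%, Wilson 95% interval 19.7 to 26.3%) were in the top 25% of the arms, above 43.74, where 25.0% of all regions lie. The top 10% took in 55 members (8.96%, interval 6.95 to 11.5%) against 10.0% of all regions, so both shares were near the background. The lowest 25% held 179 members (29.2%, interval 25.7 to 32.9%) against 24.9% of all regions, 26.5% of those in small clusters and 20.7% of lone ones. Among lone regions 27.5% (interval 25.4 to 29.8%) were in the top 25%, and their share in the top 10% was also above that of members. In both classes the intervals of members and lone regions overlapped. The lower median of members thus went with more weak regions. Their share of strong regions stood close to that of the list and somewhat below that of lone regions. Small clusters were much alike, with 23.2% in the top 25% and 8.84% in the top 10%.

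Members were wide for their score. Their median width, 360.5 bp, was nearly that of lone regions, 359 bp, although their scores were lower. All regions on the arms were divided into 10 score classes of about equal size, and in 9 of them the median width was larger for members than for lone regions. The ratio of the medians ran from 0.976 in the lowest class to 1.30 in the eighth class. In the highest class 55 members had a median width of 1126 bp, against 890 bp for 169 lone regions and 980 bp for 135 in small clusters. Members were wider than regions of small clusters in all 10 classes, by ratios of 1.01 to 1.20. Width entered the gaps that chose the members, since a wider region leaves a narrower gap, and its part in this pattern was not tested.

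**Figure D2:**
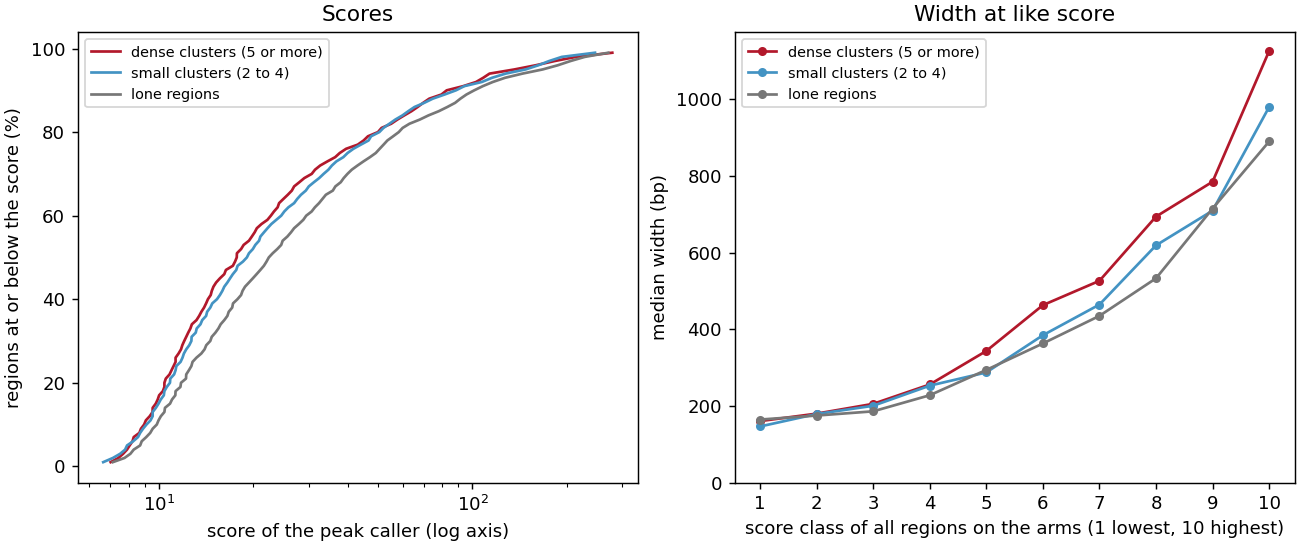
The left panel plots the percentage of regions at or below each score (log axis) for dense clusters, small clusters and lone regions. The right panel plots the median width in bp in 10 score classes of all regions on the arms, where dense clusters lie above lone regions in 9 of 10 classes and reach 1126 bp in the highest.

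Within a cluster, strong and weak regions were mixed. The highest-scoring region of a cluster had a median percentile rank of 86.1% among all regions on the arms, where 100% is the highest score, and the lowest-scoring one a median of 8.30%. In 83 clusters the weakest region was in the lowest 25% of scores, and 30 clusters held both a region of the top 10% and one of the lowest 25%. The extremes of 5 or more regions tend to lie far apart in any grouping. These ranks and counts therefore describe the clusters only, and random groups were not compared. By the number of top-25% regions, 28 clusters had none, 25 had 1 and 43 had 2 or more. Clusters with 2 or more spanned a median of 10.3 kb with 41.3% of the span covered. Those without any spanned 8.04 kb with 23.8% covered. These 2 groups of clusters held a median of 6 and 5 regions. The median width of members rose from 160.5 bp in the lowest score class to 1126 bp in the highest. What number and width of regions add to the differences in span and cover was not tested. Consecutive top-25% regions of a cluster were a median of 3484 bp apart between midpoints (n = 72 pairs). The 5 pairs under 1 kb apart were all in the 3R cluster at 27898848 to 27905034. Midpoint distances include the widths of these regions. Gaps between their edges could be short, as with 123 bp between the last 2 regions of the 2L cluster at 1643547 to 1670178. Of the 474 members outside the top 25%, 313 (66.0%) shared a cluster with a top-25% region and 151 (31.9%) were next to one. For 103 (21.7%) the gap to it was under 1 kb. In runs of 5 or more regions such shares can be large under any order of the scores. Other orders were not compared, so the counts are a description only.

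Regions at the ends of clusters scored higher than those inside. The 192 end regions had a median score of 23.3 (quartiles 12.6 and 55.5) and the 422 interior ones 16.1 (10.75 and 31.4). Top-quarter regions made up 29.7% of the ends and 19.7% of the interior. The first and the last regions along the arm had medians of 19.4 and 24.7. End regions have another region within 5 kb on 1 side, as the rule requires, and interior ones on both. Small clusters showed the same order, with 19.5 for 1244 end regions and 16.0 for 284 interior ones. The highest score of a cluster stood at an end in 46 of 96 clusters (47.9%, Wilson interval 38.2 to 57.8%), 24 times first and 22 times last. An even spread over places would give 33.7%. The share was 59.2% against 40% in clusters of 5, 39.4% against 30.4% in those of 6 to 8, and 28.6% against 19.1% in the 14 clusters with 9 or more. The second-highest score stood beside the highest in 25 clusters (26.0%), where an even spread would give 30.5%.

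**Figure D3:**
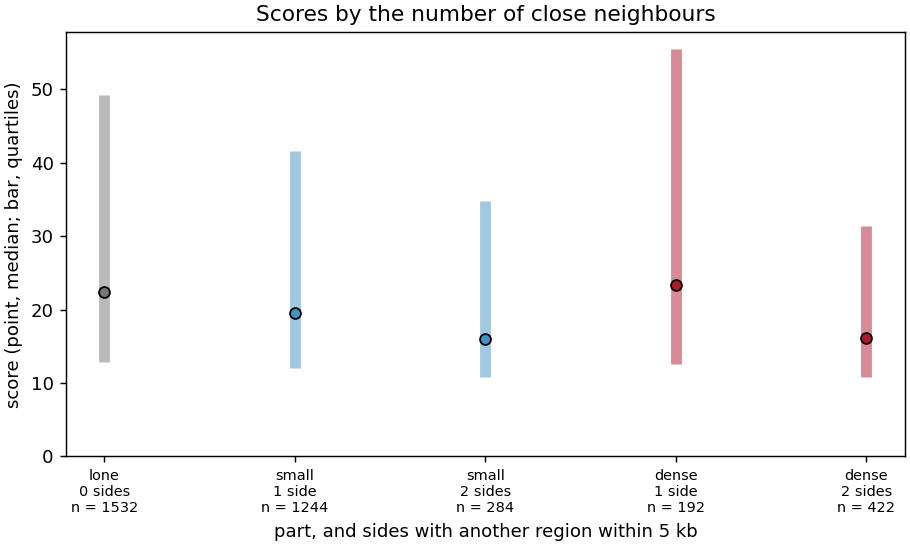
Points are median scores and bars the quartiles, for lone regions and for regions of small and dense clusters with another region within 5 kb on 1 or on 2 sides. Regions with neighbours on both sides have the lowest medians, 16.0 in small and 16.1 in dense clusters.

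Members with closer neighbours had lower median scores. Members with no other region within 1 kb had a median score of 21.4 (n = 153). Those with 1 on a single side had 17.5 (n = 286) and those with one on both sides 15.04 (n = 175). The 175 are all interior regions, so this split overlaps by construction with that into ends and interior. The percentage in the lowest 25% was 20.3, 30.1 and 35.4 in this order. The percentage in the top 25% was 21.6, 24.1 and 21.7. In small clusters the percentage in the top 25% was 26.0 for regions with none within 1 kb (n = 616), 22.4 with one on a single side (n = 814) and 12.2 with one on both sides (n = 98), and the median of the last was 12.9. The share of strong regions was thus lower with closer neighbours in small clusters and nearly level in dense ones, and the difference between them was not tested.

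The cluster with most regions lay on 3R at 5902435 to 5919488 and held 14 regions over 17.1 kb. Its scores rose to 131.54 and 100.57 in the adjacent eleventh and twelfth regions, which were 1140 and 1085 bp wide and 371 bp apart. The other top-25% region, the second in order, scored 54.54. The other 11 scored between 7.53 and 35.36, and 2 of them had a width of 119 bp, the narrowest on the arms. This cluster thus held a strong adjacent pair near one side, with 10 regions before it and 2 after it.

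The next 3 clusters held 12 regions. On 2L, 1643547 to 1670178 was also the widest of the 96 at 26.6 kb, and its strongest regions stood at opposite ends, with a score of 182.09 and a width of 1579 bp first and 135.76 and 1860 bp last. The 8 regions outside the top 25% scored from 9.55 to 27.61. On 3R, 17430959 to 17445752 opened with its strongest pair, 110.5 and 80.59 at a gap of 250 bp, and had 2 more top-25% regions farther on, 65.34 and 62.98, with 2306 bp between these 2. On X, 6747544 to 6763061 held 2 top-25% regions, 91.09 and 63.83, and 10 between 7.91 and 17.73. In these clusters, regions of the top 25% and weaker ones stood side by side.

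The 3L cluster at 17957783 to 17972745, with 11 regions, began a series of 3 clusters within 73.7 kb. All 27 called regions of that stretch, which ends at 18031449, were members, and the clusters were 8.57 and 10.8 kb apart. The last of them, from 18007423, spanned 24.0 kb with 9 regions and no top-25% region. Their scores ran from 6.74 to 32.22.

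**Figure D4:**
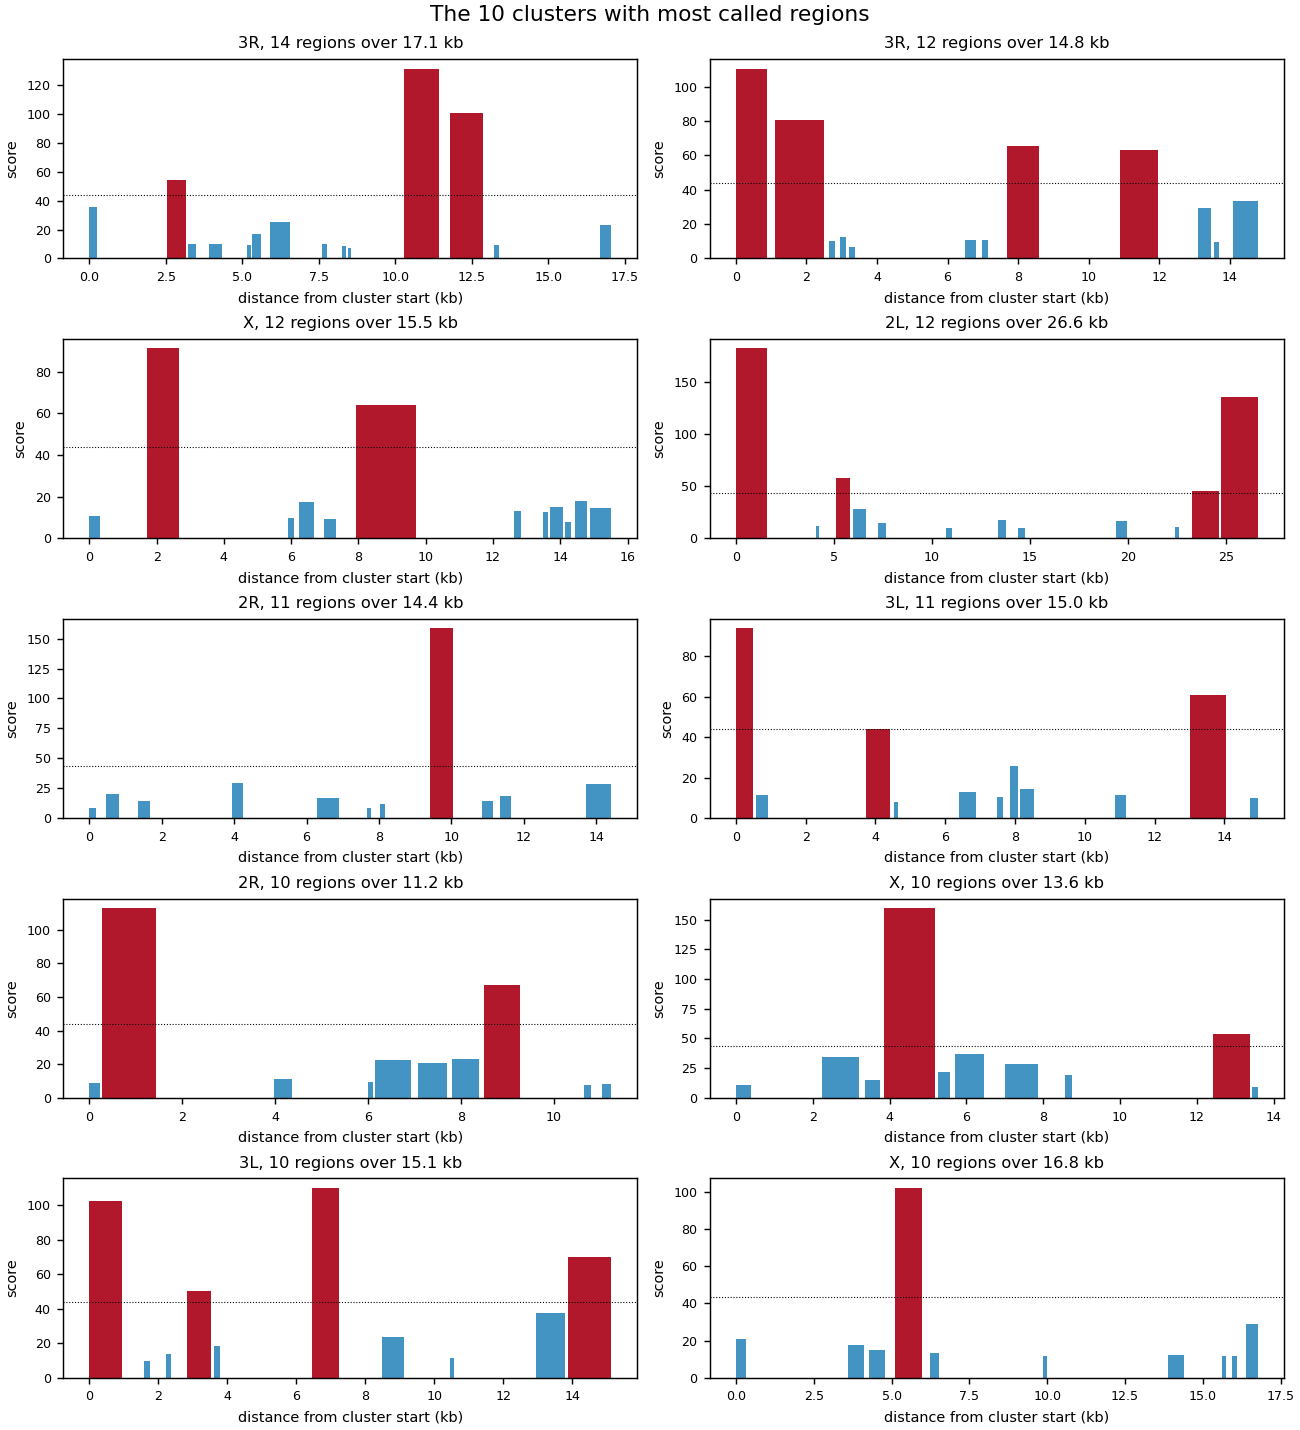
Each panel shows 1 of the 10 clusters with most called regions. Bars stand at the distance from the cluster start in kb, are as wide as the region and as high as its score, with top-25% regions in red, others in blue and the dotted line at 43.74. The first panel holds 14 regions, and its highest bars are the adjacent pair at 131.54 and 100.57.

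Some other dense clusters also lay near one another. Joining clusters less than 50 kb apart, a distance chosen after the data had been seen, gave 12 groups with 29 clusters and 195 regions. Whether this is more than other placements of the clusters would give was not tested. Besides the 3L stretch, 3 groups had more than a pair. The group on X at 3571450 to 3675264 had 4 clusters over 104 kb. They held 23 of the 25 called regions there, and 9 of the 23 were in the top 25%. On 2R, 6421887 to 6472105 had 3 clusters over 50.2 kb, and all its 25 called regions were members. Also on 2R, 7481209 to 7554284 had 3 clusters over 73.1 kb with 23 of its 28 called regions. The median distance between neighbouring clusters of an arm was 612 kb (n = 91). The closest pair, on X from 7584813 to 7605036, was 5.06 kb apart, and none of its 10 regions was in the top 25%.

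Some of the strongest regions of the list were members. Of the 20 highest scores on the arms, 6 lay in dense clusters, 5 in small ones and 9 were lone. These parts held 16.3%, 40.7% and 40.8% of all regions on the arms. With only 20 regions, the counts are a description and no difference between parts is read from them. The highest score among members, 367.96, was in the last region of a cluster of 5 on X, 4314251 to 4321328, in which the middle region scored 268.75 and whose weakest scored 12.22. Another X cluster, 2015427 to 2019930, had 326.16 in its second region and the highest covered share of all clusters, 85.0% of 4.50 kb. Also on X, 7950537 to 7957732 carried 302.7 in its middle region and a first region of 2578 bp. The 3R cluster at 9700442 to 9703320 had its strong regions at both ends, 302.63 and 196.31, and 3 weak ones from 6.58 to 14.09 between them, over 2.88 kb. In contrast, on 3L at 10842956 to 10852086, a single region at 300.89 stood among 7 others from 8.48 to 33.11. The sixth, 297.87, opened the 3R cluster at 6439860 to 6448393, which ended with regions of 234.71 and 182.89. A very high score thus occurred both with strong companions and among weak regions.

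Few clusters held many top-25% regions, and 8 of the 96 had 4 or more. The cluster with most top-25% regions, 6 of 8, was the last of 3R and is described with the evenly spaced ones. On 2R, 6305419 to 6320115 had 5 of 8, with 155.61, 143.13 and 136.88 as its highest scores. On X, 9578175 to 9588369 had 4 of 5, at 177.5, 209.67, 57.44 and 271.14, and its remaining region scored 27.61. The widest member region was on 2L at 2195965 to 2200651, with 4687 bp and a score of 148.43, and it stood in a cluster of 8. Members wider than 2 kb numbered 7 of 614, against 30 of all 3757 regions on the arms. Small clusters held 12 of these 30 and 11 were lone, so such width was not particular to dense clusters.

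The 3 densest clusters held no region of the top 25%. On X, 10439965 to 10442458 packed 6 regions into 2.49 kb (2.41 per kb) with gaps of 67 to 184 bp and scores of 9.97 to 31.44. On 3R, 13992094 to 13994350 held 5 regions in 2.26 kb with scores of 13.43 to 17.61. On 3L, 22815580 to 22818297 held 6 in 2.72 kb with scores of 9.06 to 35.96. The next densest, on 3L at 16401534 to 16404832, had 2 top-25% regions among 6, at 62.17 and 45.72.

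Intervals between midpoints were irregular in most clusters. Their coefficient of variation (SD divided by mean) had a median of 0.663 over the 96 clusters, with quartiles of 0.518 and 0.844, and was 0.25 or less in 5. It was highest in the 3R cluster at 12061369 to 12068652, at 1.5, where 5 regions scoring 7.04 to 20.42 with gaps of 67 to 254 bp were followed after 3985 bp by regions scoring 30.75 and 207.82. The runs of 4 regions that just missed the size limit had a median of 0.615 and 6 of 75 at 0.25 or less.

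The 3 clusters with the least variable intervals lay on X, 3L and 3R. On X, 11481636 to 11495225 held 7 regions with midpoints 2.18 ± 0.211 kb apart (mean ± SD, n = 6 intervals). The first 6 regions alone gave 2.09 ± 0.0376 kb (n = 5 intervals, 2.06 to 2.16 kb), and the last interval was 2.60 kb. Those 6 scored between 16.76 and 26.99, and the last region, which was also the widest at 573 bp, scored 41.12. On 3L, 18779557 to 18786120 held 5 regions 1.58 ± 0.0938 kb apart (n = 4 intervals), with scores from 9.48 to 24.52 and widths from 198 to 678 bp.

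The third evenly spaced cluster ended the called part of 3R. It ran from 27898848 to 27905034 and included the last called region of the arm. Its 6 inner regions were all in the top 25%, with scores of 44.33 to 66.81 and widths of 561 to 714 bp, and followed one another at 0.964 ± 0.0522 kb (n = 5 intervals). The outermost regions were narrow and weak, 124 bp with a score of 11.98 and 123 bp with 11.3. Over all 8 regions the coefficient of variation was 0.20, and over the 6 inner ones 0.0542. Whether the 3 clusters lie on repeated sequence was not tested, since no genome of this build was used.

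**Figure D5:**
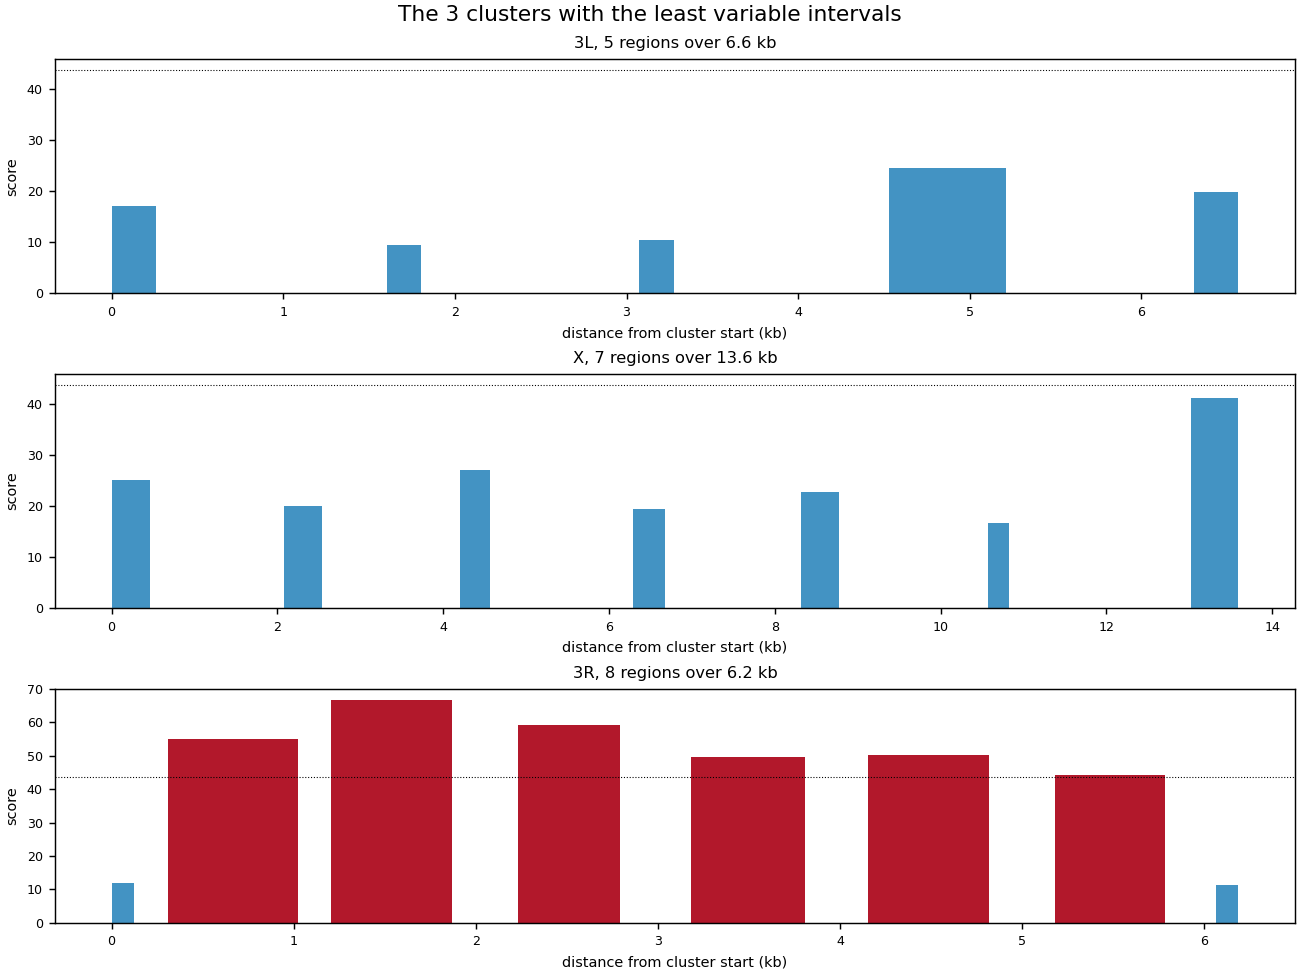
Panels show the 3 clusters with the least variable intervals, on 3L, X and 3R. Bars stand at the distance from the cluster start in kb, as wide as the region and as high as its score. Top-25% regions are in red and the dotted line is at 43.74. The 6 inner regions of the 3R cluster recur at a mean interval of 0.964 kb (0.872 to 0.998 kb).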

How the data were processed

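The deposited list gives for each region a chromosome, a start, an end and a score from MACS in FlyBase release 5, per the file headers. Per the submitters' processing notes the build was BDGP5, and the tools include BWA, MACS2 and CASAVA (1.7.0.2, 1.7.0.3). For thresholds, reads with several matches, use of the input and pooling of libraries, the setting is not given in the sources used here, so their effect on how regions were divided could not be measured. Starts were taken to count from 0, as 2 starts of 0 occur, and 1 was added to each. Gaps were computed as deposited start minus deposited end. Python 3.11.15, pandas 2.3.3 and scipy 1.17.1 were used, and the joining was tried on simulated lists with planted clusters. The top and lowest 25% and the top 10% of scores were taken over the 3757 regions on the arms.

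Clusters named were the 10 with most regions, the 5 with the highest score, the 5 with most top-25% regions (ties by highest score), the 5 widest, the 5 densest and the 3 with least and the 3 with most variable intervals. A few from each set are described. The groups of clusters, the widest member region and the closest pair were chosen after their values were seen, and so was the run of inner or first regions in evenly spaced clusters. The members and the lists were chosen with earlier results of these data known. No annotation or genome of release 5 was used, so neither genes nor sequences are given. Tried alternatives were gaps under 3 and under 10 kb, at least 4 and at least 6 regions, the top 75% of scores, joined regions and the stretch of proximal 2L kept.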

Additional observations from a re-analysis of the deposited data

How the results depend on the processing

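Dense clusters numbered 171 with at least 4 regions, 47 with at least 6, 40 among the top 75% of scores and 18 after joining regions under 1 kb apart, against 96. Members numbered 403 with gaps under 3 kb, 996 under 10 kb, 369 with at least 6 regions, 236 among the top 75% of scores and 97 joined sites, against 614. Fewer or wider units follow from how these settings are built. The highest score stood at an end in 36.2% of clusters of at least 6 regions, where an even spread gives 27.1%. For joined sites these shares were 38.9% and 37.6%. Members in the top 25% made up 30.5% once the lowest 25% of the list was removed, against 33.3% of all regions then left. The median score of members minus that of lone regions was -4.70 and stayed below 0 in all 7 settings, nearest to 0 for joined sites at -1.25. The median width difference of 1.5 bp had no stable sign: it was -9 bp with at least 4 regions, -19 bp with the 2L stretch kept, 56 bp in the top 75% of scores and 70 bp for joined sites, where a site's width includes its gaps. For the rest the cause was not tested. No paired analysis was possible because regions carry no separate value for each library, and leaving out a replicate was not possible for the same reason. The unknown depth limits what can be said of weak regions.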
